A study of Mus musculus with 2 samples.

Results

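The Krüppel-like factor (KLF) genes Klf2, Klf3, Klf4, Klf6, Klf7 and Klf13 were described by the open chromatin at their loci in mouse blood monocytes. Of the 28438 open regions of the series, 53 belonged to these 6 of 21853 protein-coding genes. A region was counted for a gene when its summit lay inside the gene body. It was also counted when the summit lay no farther than 100 kb from a transcription start site (TSS) of the gene and no other protein-coding TSS was nearer. Klf13 had 15 regions, Klf4 had 10, Klf6 had 9, Klf2 and Klf3 had 8 each, and Klf7 had 3. The same places were then read in the peak list of each replicate.

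Chromatin was profiled by ATAC-seq, in which the Tn5 transposase inserts adapters into DNA that nucleosomes leave uncovered. The series held 1 group and no control: primary blood monocytes of C57BL/6J adults, 5 to 6 weeks old, in 2 biological replicates of 50000 cells each. Their purification is not described in the labels used here. The labels give both replicates the same donor identifier, name no genotype, treatment or sex, and do not say whether separate animals were used, so the spread between the replicates may be technical. With 1 group of 2, no test between conditions was possible, and all values below are descriptions. Each peak carries the authors' own fold enrichment over background and −log10 p, which rank a peak within its list. Depth is unknown because no read counts were used. The labelled cell type was checked by promoters: 9 of 10 monocyte markers were open (Ccr2 was the exception), as were 5 of 5 markers of nonclassical monocytes. Of markers of other blood cells, 1 of 8 neutrophil promoters (Mmp8), 1 of 8 T cell promoters, 2 of 7 B cell promoters, 1 of 5 NK cell promoters, 1 of 6 erythroid promoters, 2 of 5 dendritic cell promoters and 0 of 5 platelet promoters were open, against 46.6% of all protein-coding genes. Regions of any kind separated the lists less. At least 1 was assigned to 10 of 10 monocyte and 5 of 5 nonclassical markers. The same held for 5 of 8 neutrophil, 4 of 8 T cell, 6 of 7 B cell and 4 of 5 NK cell markers. It also held for 4 of 5 dendritic cell, 1 of 6 erythroid and 2 of 5 platelet markers, while 41.8% of all genes had none. The NK cell gene Klrb1c had 7 without an open promoter. What other cells contributed to the KLF regions was not tested.

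KLF proteins bind GC-rich DNA, including CACCC boxes, through zinc fingers at their C-terminal end, and they share this preference with the SP factors. Family members differ mainly in the part outside the zinc fingers, which recruits coactivators or corepressors. Klf4 drives the monocyte programme in mouse myeloid progenitors downstream of PU.1 and Irf8. Klf2 is known for holding T cells and monocytes in a quiescent, non-inflammatory state, and Klf6 for promoting inflammatory gene expression in macrophages. Klf3 and Klf13 are mostly described as repressors, through the corepressors CtBP and Sin3A, and Klf7 is best known from neurons and adipocytes.

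The DNA at the strongest open region outside the promoter of each gene is shown first, by mean fold among regions found in both replicates. Each of these 6 windows carries the largest replicated signal of its own gene outside protein-coding promoters. Some further regions of Klf3 and Klf4 had higher folds than the windows of other genes. Sequences are of GRCm38 on the plus strand, 5′ to 3′, up to 201 bases centred on the summit, and capitals mark matches to any of 14 short motif strings. The strings that matched here were the KLF/SP box CCNCNCCC, the SP GC box GGGCGG, the PU.1 core GAGGAAG, the C/EBP string TTGCNNAA and the AP-1 string TGANTCA, each on either strand.
Klf2 41.5 kb downstream, chr8:72360403-72360603: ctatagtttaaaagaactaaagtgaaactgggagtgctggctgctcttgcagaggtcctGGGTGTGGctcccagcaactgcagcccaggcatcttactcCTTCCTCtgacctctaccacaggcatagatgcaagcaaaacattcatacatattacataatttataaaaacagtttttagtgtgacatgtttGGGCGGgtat
Klf3 50.1 kb upstream, chr5:64753198-64753398: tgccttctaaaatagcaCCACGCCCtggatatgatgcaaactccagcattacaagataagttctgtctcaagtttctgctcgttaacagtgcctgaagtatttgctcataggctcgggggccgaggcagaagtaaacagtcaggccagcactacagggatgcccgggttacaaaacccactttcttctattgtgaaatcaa
Klf4 91.1 kb upstream, chr4:55623477-55623677: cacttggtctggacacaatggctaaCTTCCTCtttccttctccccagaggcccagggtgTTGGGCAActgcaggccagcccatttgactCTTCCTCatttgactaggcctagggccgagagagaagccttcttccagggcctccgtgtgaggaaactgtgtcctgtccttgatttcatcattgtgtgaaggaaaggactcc
Klf6 15.7 kb upstream, chr13:5845724-5845924: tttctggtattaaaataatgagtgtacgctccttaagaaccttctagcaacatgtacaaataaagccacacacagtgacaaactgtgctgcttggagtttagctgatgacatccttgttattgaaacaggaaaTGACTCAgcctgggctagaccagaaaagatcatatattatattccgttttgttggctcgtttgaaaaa
Klf7 43.7 kb downstream, chr1:64078488-64078688: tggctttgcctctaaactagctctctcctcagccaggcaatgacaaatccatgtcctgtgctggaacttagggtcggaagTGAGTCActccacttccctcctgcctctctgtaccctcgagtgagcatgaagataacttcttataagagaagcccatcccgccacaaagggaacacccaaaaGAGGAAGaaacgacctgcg
Klf13 72.9 kb upstream, chr7:64011720-64011920: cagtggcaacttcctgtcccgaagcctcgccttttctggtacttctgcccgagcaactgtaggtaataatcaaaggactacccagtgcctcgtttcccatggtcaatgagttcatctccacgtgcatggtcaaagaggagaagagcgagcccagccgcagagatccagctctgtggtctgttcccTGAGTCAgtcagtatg
The window upstream of Klf4 held 2 PU.1 cores and 1 C/EBP string, and the Klf2 window held 1 PU.1 core at the summit with 1 KLF/SP box and 1 GC box. The Klf3 window held a KLF/SP box alone, the Klf6 and Klf13 windows held an AP-1 string alone, and the Klf7 window held an AP-1 string and a PU.1 core. A match is a description of the letters and not a bound site.

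The promoter window of each gene is shown beside these, because some of the 6 promoters differ in which strings they hold. The CTCF core AGGGGGC and the MEF2 string TATTTTTA also matched here. The Klf2 window ends before the transcript, which removes 62 bases.
Klf2 promoter, chr8:72318894-72319032: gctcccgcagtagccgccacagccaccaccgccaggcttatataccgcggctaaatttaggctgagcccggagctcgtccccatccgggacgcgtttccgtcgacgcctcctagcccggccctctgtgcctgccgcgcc
Klf3 promoter, chr5:64802924-64803124: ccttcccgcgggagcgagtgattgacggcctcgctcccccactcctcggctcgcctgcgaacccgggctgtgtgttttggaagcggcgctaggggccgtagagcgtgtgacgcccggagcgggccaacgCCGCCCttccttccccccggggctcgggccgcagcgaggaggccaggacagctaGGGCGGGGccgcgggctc
Klf4 promoter, chr4:55532489-55532689: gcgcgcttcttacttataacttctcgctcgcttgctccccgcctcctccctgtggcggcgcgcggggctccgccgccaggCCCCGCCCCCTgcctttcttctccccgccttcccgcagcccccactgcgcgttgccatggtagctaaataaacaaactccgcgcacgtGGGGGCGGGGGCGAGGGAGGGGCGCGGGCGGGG
Klf6 promoter, chr13:5861215-5861415: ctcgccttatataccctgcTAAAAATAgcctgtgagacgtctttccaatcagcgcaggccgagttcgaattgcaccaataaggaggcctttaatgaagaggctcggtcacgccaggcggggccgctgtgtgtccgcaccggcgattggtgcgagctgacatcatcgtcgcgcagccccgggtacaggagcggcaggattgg
Klf7 promoter, chr1:64121579-64121779: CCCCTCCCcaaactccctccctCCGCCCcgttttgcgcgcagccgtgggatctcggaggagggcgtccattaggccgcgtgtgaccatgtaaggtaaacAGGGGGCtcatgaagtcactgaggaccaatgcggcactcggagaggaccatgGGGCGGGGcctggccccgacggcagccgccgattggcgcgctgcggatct
Klf13 promoter, chr7:63939005-63939205: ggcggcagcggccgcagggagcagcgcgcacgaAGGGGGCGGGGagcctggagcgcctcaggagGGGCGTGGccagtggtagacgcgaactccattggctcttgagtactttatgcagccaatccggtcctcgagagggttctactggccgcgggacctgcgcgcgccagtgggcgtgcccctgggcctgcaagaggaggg
The Klf4 window held 8 KLF/SP boxes, in separate stretches of overlapping matches, and 3 GC boxes. KLF/SP boxes also stood in the windows of Klf3 (1), Klf7 (2) and Klf13 (3), and each of these held at least 1 GC box. The windows of Klf4, Klf7 and Klf13 also held 1 CTCF core each, so these 3 windows held the same kinds of string. No KLF/SP box or GC box was found in the windows of Klf2 and Klf6. A KLF/SP box can share bases with a GC box or a CTCF core, so these counts are not independent. The Klf2 window held none of the 14 strings, and the Klf6 window held the MEF2 string alone, which was present in 0.378% of all promoter regions.

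All 6 KLF genes had an open promoter, against 46.6% of protein-coding genes. A promoter was called open when a region came within 1 kb of a TSS of the gene. The KLF promoters were low in fold enrichment within their class. The 10 KLF promoter regions had a median fold of 4.45 in the series' conservative set, against 7.64 for all 10589 promoter regions. Of the 10, 9 lay below the class median and 7 in the lowest 25% of the class, while 0 reached the highest 25%. By −log10 p the same regions stood higher, with 8 of 10 below the class median, 5 in the lowest 25% and 2 in the highest 25%. Their median GC content around the summit was 67.7%, against 62.7% for all promoter regions, and 7 of 10 were wider than the class median.

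The strongest KLF promoter was that of Klf7 (ENSMUSG00000025959, chr1:64029447-64122282, minus strand, mm10), a gene known for its role in neuronal outgrowth. Its region, chr1:64121502-64122583, had a fold of 8.92 in replicate 1 and 9.29 in replicate 2, a mean of 9.11 ± 0.261 (SD, n = 2). Klf6 (ENSMUSG00000000078, chr13:5861482-5870394, plus strand) followed, with a promoter region at chr13:5861030-5861767. Its folds were 7.02 and 6.50, a mean of 6.76 ± 0.368. The values of Klf7 and Klf6 did not overlap each other or those of the other 4 genes.

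Klf13 (ENSMUSG00000052040, chr7:63886351-63938915, minus strand) had a promoter region at chr7:63938729-63940048 with folds of 4.73 and 4.55 and a mean of 4.64 ± 0.122. Klf4 (ENSMUSG00000003032, chr4:55527143-55532466, minus strand) had its strongest promoter region at chr4:55532403-55532742, with folds of 4.42 and 4.60 and a mean of 4.51 ± 0.129. The replicate values of these 2 genes overlapped, so their order is not fixed. Klf2 (ENSMUSG00000055148, chr8:72319033-72321656, plus strand) had nearly the same fold in both replicates, 4.40 and 4.39, at chr8:72318599-72319445, a mean of 4.39 ± 0.00274. Klf3 (ENSMUSG00000029178, chr5:64803388-64832901, plus strand) was lowest, with 3.58 and 3.63 at chr5:64802728-64803620 and a mean of 3.60 ± 0.0355. By fold, only Klf7, with its value at the 69.0 percentile of all promoter regions, stood above the class median, and the Klf3 value stood at the 4.55 percentile. By −log10 p, both Klf7 (93.6 percentile) and Klf6 (80.0) stood above it, with Klf13 at 49.6 and Klf2 at 44.0.

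Further promoter regions lay beside alternative or nearby starts. Klf3 had a region at chr5:64812152-64812922, inside intron 1 and 0.06 kb from a downstream TSS, with folds of 3.20 and 3.08. Klf4 had a neighbour at chr4:55532801-55533544, 0.53 kb upstream of its most upstream TSS, with folds of 3.92 and 3.51. Klf13 had 2 more, both in intron 1: chr7:63936323-63936701, with folds of 3.22 and 3.19, and chr7:63925388-63925997, with folds of 5.14 and 5.57. All 4 were present in both replicates. None of the 3 Klf13 promoter regions was in the stricter thresholded set of replicate 1, although all 3 were in that of replicate 2.

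**Figure D1:**
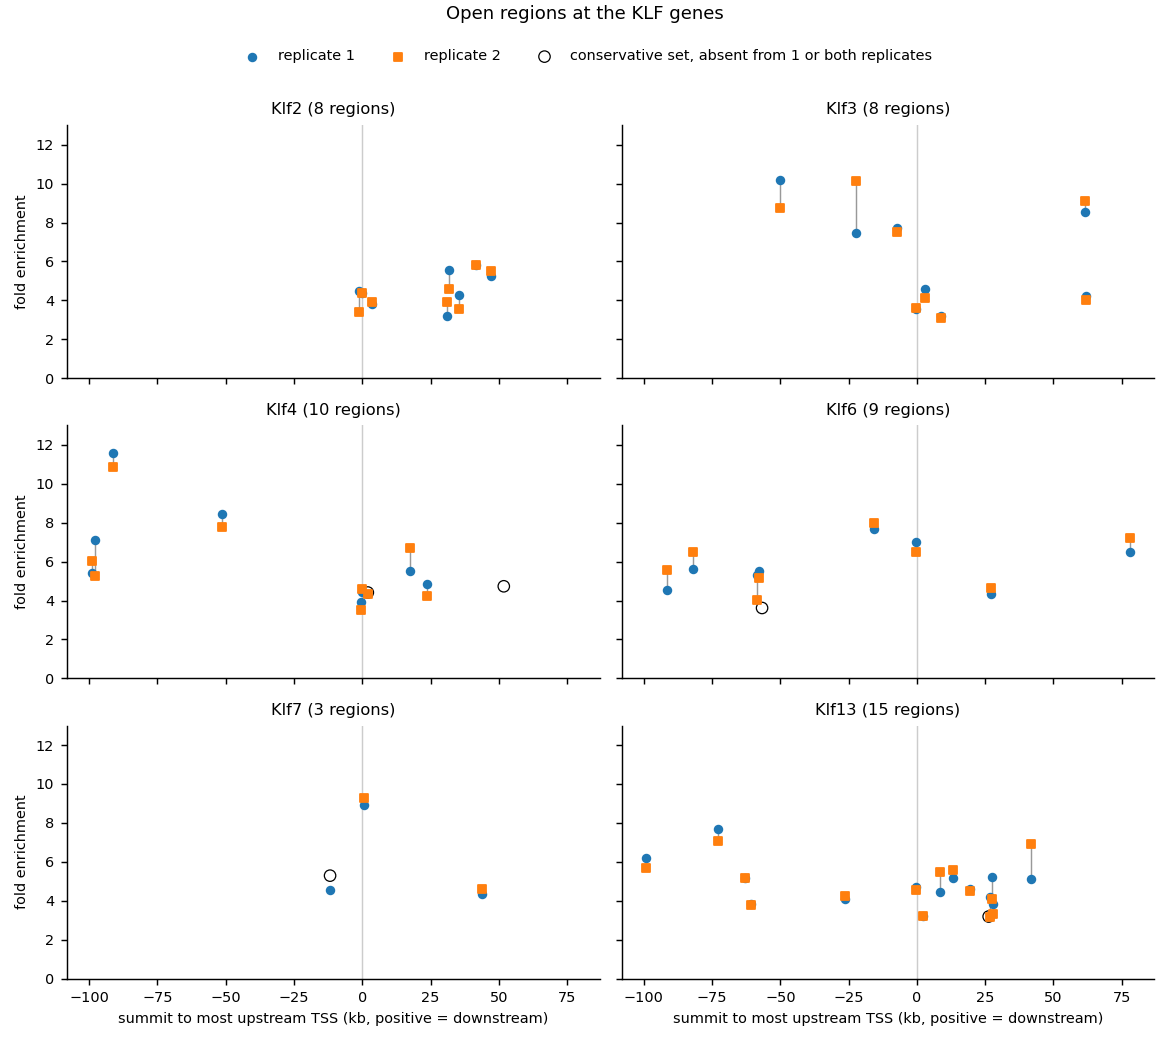
Fold enrichment (y axis) of each open region in replicate 1 and replicate 2 against the distance of its summit from the most upstream TSS (x axis, kb, positive is downstream), 1 panel per KLF gene, with open circles for conservative regions absent from 1 or both replicates. The Klf4 region 91.1 kb upstream is the highest point (11.6 and 10.9), the Klf2 regions lie between 3.19 and 5.83, and Klf7 has its highest point at the promoter.

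Most of the KLF regions lay away from promoters. Of the 53, 28 were intergenic (52.8%, against 31.9% of all regions), 14 were intronic (26.4%, against 27.7%), 1 was exonic (1.89%, against 3.18%) and 10 were at promoters (18.9%, against 37.2%). The number of regions per gene was high for 5 of the 6. Klf13, with 15, shared its count or a higher one with 0.156% of protein-coding genes, Klf4, with 10, with 0.966%, Klf6, with 9, with 1.4%, and Klf2 and Klf3, with 8, with 2.1%. Klf7, with 3, did so with 16.6% of genes, and the median gene had 1. The length of DNA searched differs between genes, so the count was also taken per 100 kb of it. Klf2 then came first with 13.8 regions per 100 kb (58.1 kb searched), followed by Klf13 with 9.83 and Klf4 with 5.22. Klf3 had 4.54, Klf6 had 4.5 and Klf7 had 1.49, against a median of 1.11 over all genes. The standing of most of the genes was lower by this measure. As many regions per 100 kb or more were found at 3.71% of genes for Klf2, 7.69% for Klf13, 19.4% for Klf4, 22.6% for Klf3, 22.7% for Klf6 and 46.4% for Klf7. In 7 places KLF regions stood less than 1 kb from each other, and these runs held 17 of the 53 regions (32.1%), against 15.7% of all regions with another less than 1 kb away.

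**Figure D2:**
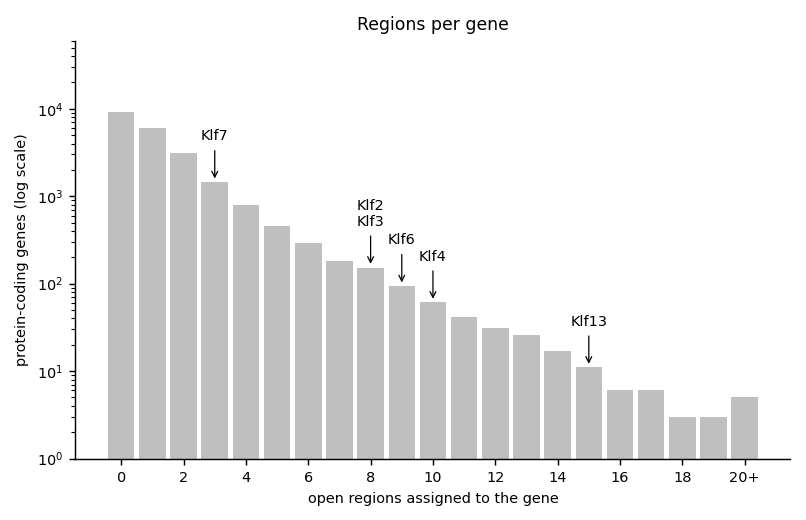
Number of protein-coding genes (y axis, log scale) by the number of open regions assigned to them (x axis), with the 6 KLF genes marked. Klf13 (15 regions), Klf4 (10), Klf6 (9), Klf2 and Klf3 (8 each) lie in the thin right tail, and Klf7 (3) lies nearer to the bulk.

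At Klf4 the strongest regions were far upstream, where no other protein-coding gene starts nearer. The region chr4:55623262-55623810, 91.1 kb upstream, had folds of 11.6 and 10.9, a mean of 11.2 ± 0.495 (SD, n = 2), and it stood at the 98.2 percentile of all regions outside promoters. It was the highest KLF region of all, 2.49 times the Klf4 promoter by mean fold. A region 51.3 kb upstream, chr4:55583688-55584008, had 8.44 and 7.80, and one 98.0 kb upstream, chr4:55630252-55630555, had 7.12 and 5.24. The last 2 values differed more, by 0.44 on the log2 scale. Downstream of the gene, chr4:55514717-55515246 had folds of 5.50 and 6.67 and a window GC content of 68.2%. The coding exon 3 of Klf4 held a region, chr4:55530196-55530568, that was found in replicate 2 (4.34) and not in replicate 1. The region 51.8 kb downstream, chr4:55480289-55480748, had a fold of 4.73 in the conservative set and was in neither replicate's own list.

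Klf3, whose product represses transcription with CtBP, combined the weakest promoter with strong surrounding regions. Its region chr5:64753024-64753632, 50.1 kb upstream, had folds of 10.2 and 8.75, a mean of 9.46 ± 1.00. A region 61.4 kb downstream of the first TSS and past the end of the gene, chr5:64864616-64865134, had 8.55 and 9.10 and the highest −log10 p of the Klf3 regions, 85.9. The region 22.4 kb upstream, chr5:64780663-64781385, had 7.45 and 10.1, which is the largest difference between replicates at any KLF region (0.44 on the log2 scale). Another, chr5:64795718-64796150, 7.41 kb upstream, had 7.73 and 7.50. Each of these 4 regions was more than 2 times as enriched as the Klf3 promoter in both replicates, which held for 1 region of Klf4 and for 0 of the other 4 genes. By fold, the same 4 of the 6 Klf3 regions outside promoters were in the highest 25% of their class.

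Klf6 had 8 regions outside its promoter, all intergenic. The highest was chr13:5845143-5845966, 15.7 kb upstream, with folds of 7.68 and 7.98 and a mean of 7.83 ± 0.215. It was followed by chr13:5939413-5939703, 78.1 kb downstream, with 6.50 and 7.19, and chr13:5779463-5779738, 81.9 kb upstream, with 5.62 and 6.49. A run of 3 regions within 2037 bases lay 56.7 to 58.5 kb upstream. Of that run, chr13:5804653-5804905 had a fold of 3.62 in the conservative set and was in neither replicate's own list.

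At Klf13, which is known for raising Ccl5 transcription in T cells, the regions fell into an upstream group and a group in intron 1. The strongest was upstream, chr7:64011580-64012428, 72.9 kb from the first TSS, with folds of 7.69 and 7.05 and a mean of 7.37 ± 0.452. These values overlapped those of the strongest Klf6 region, so their order is not fixed. Next came chr7:63896693-63897499, deep in intron 1, with 5.10 and 6.92, and chr7:64037685-64038269, 99.2 kb upstream, with 6.19 and 5.68. Of the regions in intron 1, 4 stood within 1855 bases of each other, at folds between 3.19 and 4.75 in the conservative set. The lowest of these, chr7:63912529-63912760, was in neither replicate's own list. The start of the protein-coding gene E030018B13Rik also lies in this intron. For 6 of the 15 regions it was the nearest protein-coding TSS, and those regions were counted for Klf13 because they lie in its gene body.

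The Klf2 regions outside the promoter were low in fold, with a median of 4.02 in the conservative set, the lowest of the 6 genes. Of the 7, 0 reached the class median. The highest, chr8:72359772-72360677, 41.5 kb downstream, had folds of 5.80 and 5.83, a mean of 5.81 ± 0.0263. The next were chr8:72365840-72366227, with 5.27 and 5.52, and chr8:72350768-72351026, with 5.57 and 4.58. All 3 lay in introns 21 and 22 of the neighbouring gene Eps15l1, an endocytic adaptor, and so did 2 weaker regions. By −log10 p, 5 of the 7 Klf2 regions stood above the class median instead, with a median percentile of 65.7, against 7.59 by fold. The placing of Klf2 therefore depends on which of the authors' values is used. Close to the gene, regions 1.21 kb upstream (4.50 and 3.40) and 3.63 kb downstream of the TSS (3.80 and 3.92) flanked the promoter.

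Klf7 was the reverse of Klf3 in that its promoter was its strongest region. Its other regions were chr1:64078441-64079103 in intron 2, with folds of 4.36 and 4.58 (mean 4.47 ± 0.158), and chr1:64133979-64134145, 11.8 kb upstream. The upstream region had a fold of 5.29 in the conservative set, above the 4.42 of the intron 2 region, but was found in replicate 1 (4.55) and not in replicate 2.

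Over all 43 KLF regions outside promoters, the median fold was 5.41, against 6.06 for the 17849 regions of that class. By fold, 28 of the 43 lay below the class median and 9 in the highest 25%. By −log10 p, 16 lay below the median and 13 in the highest 25%. The 4 regions in the highest 10% by fold were those at Klf4 (91.1 kb upstream) and Klf3 (50.1 and 22.4 kb upstream, and 61.4 kb downstream). Ordered by the mean fold of each gene's strongest region found in both replicates, Klf4 came first, then Klf3, Klf6 and Klf13 with overlapping values, Klf2 and Klf7. That order differs from the order of the promoters, where Klf7 came first and Klf3 last.

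**Figure D3:**
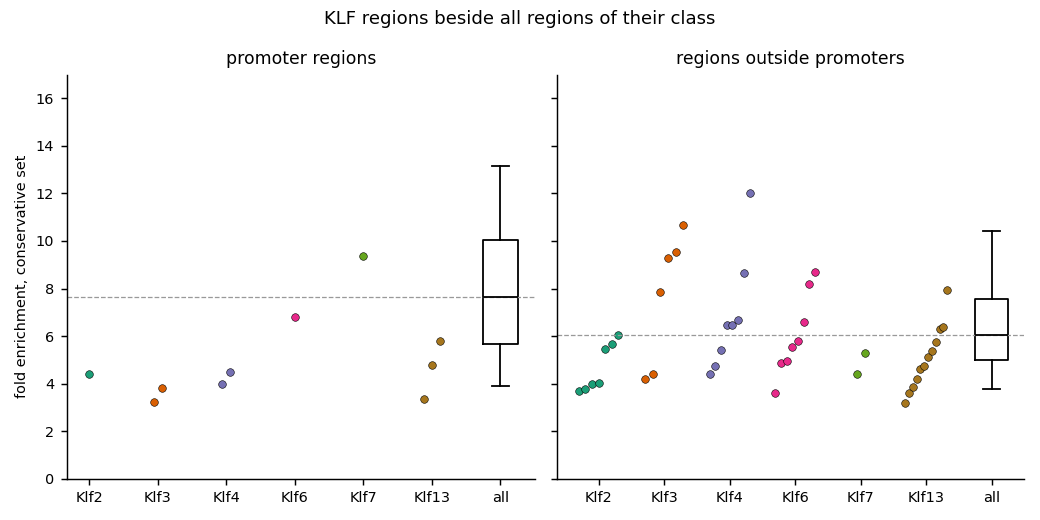
Fold enrichment in the conservative set (y axis) of each KLF region by gene, beside a box for all regions of the same class (line, median; box, quartiles; whiskers, 5th to 95th percentile), for promoter regions on the left and regions outside promoters on the right. Only the Klf7 promoter lies above the median of all promoters (7.64), while Klf3 and Klf4 have regions near or above the upper whisker on the right.

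Of the 53 regions, 48 (90.6%) were in both replicates' lists, against 91.1% of all regions. A further 1 was in replicate 1 alone, 1 in replicate 2 alone and 3 in neither (5.66%, against 1.48%), all named above. All 10 promoter regions were in both. In the stricter thresholded set that the authors made for each replicate, 23 of the 53 (43.4%) were found in both replicates, against 50.3% of all regions, and 14 in neither (26.4%, against 29.7%). Found in both were 5 of 10 KLF promoter regions, against 71.3% of promoter regions, and 18 of 43 outside promoters (41.9%), against 37.9%. The log2 fold of replicate 2 minus replicate 1 was -0.02 at the median of the 48 shared regions (SD 0.21), against -0.03 (SD 0.24) over all 25897 shared regions. No KLF region differed by more than 1 log2 unit, against 0.0386% of all. Across the 48 regions, which come from the same 2 libraries, the log2 folds had a Pearson correlation of 0.899 and a Spearman correlation of 0.882.

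**Figure D4:**
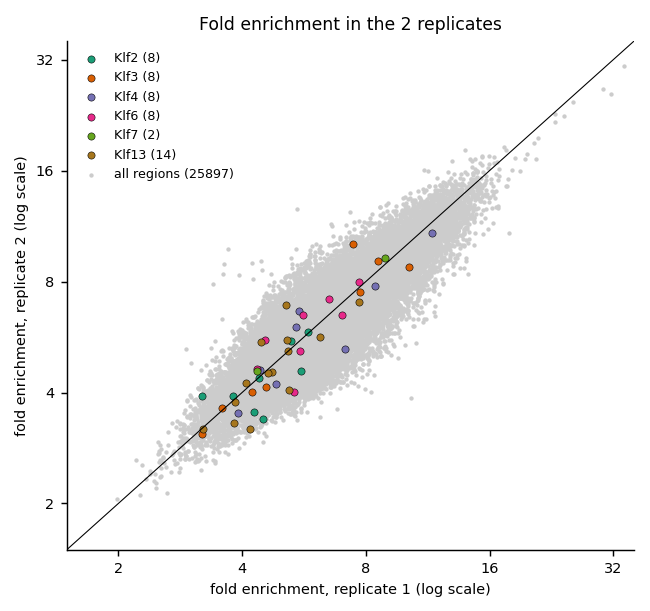
Fold enrichment in replicate 2 (y axis, log scale) against replicate 1 (x axis, log scale) for the 48 KLF regions found in both, coloured by gene, over all 25897 shared regions in grey, with the line of equality. KLF points lie along the line, and the Klf3 region 22.4 kb upstream (7.45 in replicate 1, 10.1 in replicate 2) is among the farthest from it.

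Just inside the 100 kb limit, the Klf13 region 99.2 kb upstream had a fold of 6.30 in the conservative set, the Klf4 region 98.8 kb upstream had 6.48 and the Klf6 region 91.6 kb upstream had 5.80. The first regions beyond it, with the KLF TSS still the nearest protein-coding one, were not all close to the limit: a region 101 kb upstream of Klf3 had 7.37, one 119 kb upstream of Klf4 had 8.14, one 135 kb upstream of Klf6 had 7.84 and one 179 kb upstream of Klf7 had 5.37. No such region was found for Klf13. For Klf2 none was possible, because other protein-coding starts ended its searched DNA, 58.1 kb in all, inside the limit.

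Noncoding genes also start within these loci. For 25 of the 53 regions a noncoding start, pseudogenes included, was nearer than the KLF TSS (47.2%, against 31.1% over all protein-coding genes and their regions). These were 8 of 9 at Klf6, 7 of 10 at Klf4, 7 of 15 at Klf13, 2 of 8 at Klf3, 1 of 3 at Klf7 and 0 of 8 at Klf2. Within 1 kb of such a start lay 5 regions (9.43%, against 10.2% of all regions). Among them, the Klf13 region 62.8 kb upstream (5.16 and 5.17) lay 0.13 kb from the start of the lincRNA Gm32633, and the Klf7 region in intron 2 lay 0.07 kb from the antisense gene Gm13748. When noncoding starts competed for regions, the KLF genes had 32 regions, and Klf6 had 1.

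Short motif strings were counted within 100 bases of each summit. Outside promoters, the KLF/SP box was present in 17 of 43 KLF regions (39.5%), against 27% of all regions of that class, and the GC box in 8 (18.6%), against 10.3%. The PU.1 core was in 14 (32.6%), against 24.6%, and PU.1 is the ETS factor that specifies myeloid cells. The C/EBP and AP-1 strings were each in 8 (18.6%), against 13.5% for C/EBP and 11.3% for AP-1. The RUNX string TGTGGTT was in 2 (4.65%), against 9.67%, and the CTCF core in 0, against 7.73%. The E-box CAGCTG was in 5 (11.6%), against 14.5%, the STAT string TTCNNNGAA in 4 (9.3%), against 5.38%, and the IRF string GAAANNGAA in 3 (6.98%), against 8.13%. For the IRF string the direction turned with the window: it was in 7 (16.3%), against 11.6%, within 150 bases, and in 2 (4.65%), against 3.99%, within 50. The NR4A string AAAGGTCA and the NF-kB string GGGANTTCC were each in 1 (2.33%), against 2.78% for NR4A and 1.42% for NF-kB, and within 50 bases NR4A was in 1, against 1.61%, and NF-kB in 0, against 0.846%. The CRE TGACGTCA and the MEF2 string were in 0, against 0.768% for CRE and 1.6% for MEF2. At promoters the KLF/SP box was in 6 of 10 regions (60%), against 57%, and the GC box in 7 (70%), against 56%. Within 50 bases both were less frequent than in all promoter regions, the KLF/SP box in 3 (30%), against 37.0%, and the GC box in 3 (30%), against 38.6%. The CTCF core, absent from the KLF regions outside promoters, was within 100 bases in 3 of the 10 promoter regions (30%), against 12.4%. With so few regions these shares are descriptions only. Median GC content outside promoters was 51.7% in KLF regions, against 50.8% in all.

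By gene, the PU.1 core was found in 5 of the 15 Klf13 regions, 3 of 9 at Klf6 and 1 of 3 at Klf7, against 20.3% of all regions. Nearer to that share were 2 of 8 at Klf2, 2 of 8 at Klf3 and 2 of 10 at Klf4. A KLF/SP box was found in 6 of the 8 Klf3 regions, both promoter regions included, and in 8 of the 15 Klf13 regions, against 38.2% of all regions. At Klf2 (3 of 8) and Klf7 (1 of 3) it was about as frequent as in all regions. It was less frequent at Klf4 (3 of 10) and Klf6 (2 of 9), on few regions. AP-1 strings were found in 4 of the 9 Klf6 regions, and in 1 region of each other gene, against 8.47% of all regions. C/EBP strings were found in 4 Klf13 regions, 1 region each of Klf2, Klf3, Klf4 and Klf6, and no Klf7 region, against 10.8% of all regions. The single NR4A string lay in the region 51.3 kb upstream of Klf4. An IRF string lay in the Klf3 region 7.41 kb upstream, whose window also held PU.1, C/EBP and AP-1 strings.

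**Figure D5:**
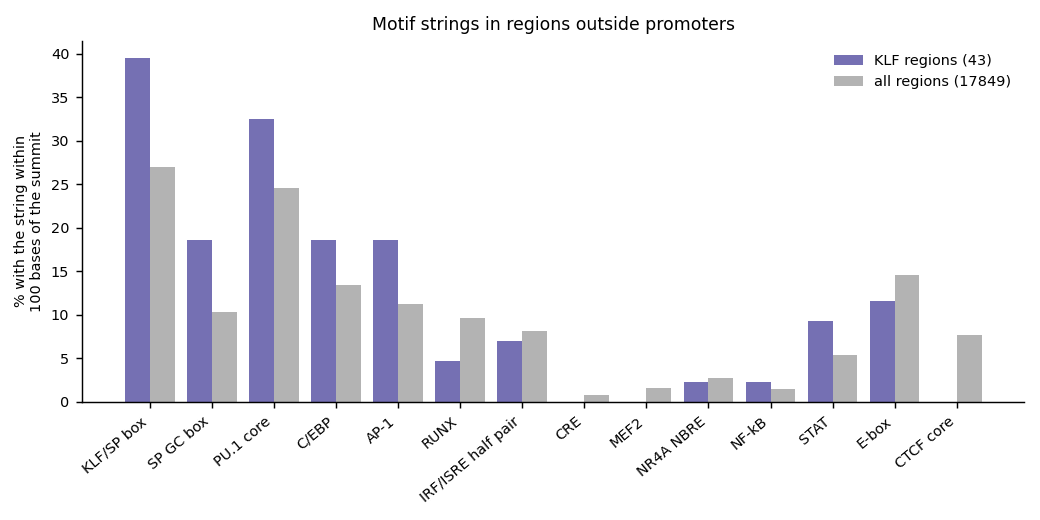
Share of regions outside promoters (y axis, %) that hold each of 14 motif strings (x axis) within 100 bases of the summit, for the 43 KLF regions and, beside them, all 17849 regions of the class. The KLF/SP box is highest in both (39.5% and 27%), and the CRE, MEF2 and CTCF strings are at 0 in the KLF regions.

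Of the 20 other SP/KLF genes, 12 had an open promoter (60%, against 46.6% of all genes), and 16 had at least 1 region (41.8% of all genes had none). Their median was 1 region, as over all protein-coding genes, against 8.5 for the 6 KLF genes above. Those 6 were chosen with earlier results of these data known, and the length of DNA searched differs between genes. Of the 20, Klf10, a TGF-beta-induced factor, and Sp2 had most, with 7 regions each, more than Klf7. Per 100 kb searched, Sp2 had 15.6 regions and Klf16 had 20.2, from 3 regions in 14.8 kb, both above the 13.8 of Klf2. Klf15, Klf17, Sp5 and Sp8 had none. Among 12 genes of KLF partners, 11 promoters were open, the exception being that of the acetyltransferase gene Kat2b. Both CtBP genes and both Sin3 genes, corepressors of Klf3 and Klf13, were among the 11. The ubiquitin ligase gene Fbxw7 had most regions, 5.

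Genes known to act upstream of KLF genes all had open promoters. The 10 listed included the kinases Map3k3, Map2k5 and Mapk7 and the MEF2 factors they activate, which induce Klf2 and Klf4 in endothelial cells. Their median was 6 regions, against 1 over all protein-coding genes, and all 10 promoters were open, against 46.6% of genes. Mef2a had 10, Mef2c 9, and Spi1 and Irf8 7 each. Per 100 kb searched, Spi1 (17.8) and Irf8 (5.14) stood above Mef2a (4.14) and Mef2c (2.58) instead. Of 9 genes known as targets of Klf2 or Klf4, 7 promoters were open. The sphingosine receptor gene S1pr1, which controls egress of lymphocytes, had 11 regions and the nuclear receptor gene Nr4a1 had 10. Per 100 kb searched, Nr4a1 had 27.5 and S1pr1 had 5.90. The promoters of Arg1 and Nos3 were not open, though each gene had at least 1 region. Nr4a1 and Cd14 are also in the monocyte marker lists, and Klf1 in the erythroid list, so these lists are not separate.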

How the data were processed

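The deposited files were ATAC-seq peak lists of 2 monocyte replicates, numbered as in the labels, on mm10 per the labels. Peaks were called per replicate and on both replicates together, per the deposited README, which also names a further input without describing it. Which aligner and peak caller made them is not given in the sources used here. Each peak's fold enrichment is a linear ratio over background, as the authors deposited it, not scaled between samples. The −log10 p of each peak is likewise the value in the authors' deposited lists. No counts of reads were used, so no interval or floor is given.

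From these values, the 39944 peaks of the series' conservative set that lie on chromosomes 1 to 19, X and Y were merged where they shared at least 1 base. Of its peaks, a region took the highest fold, and its summit came from the peak of smallest p. Replicate folds come from each replicate's pseudoreplicated set, the looser list, where a region shares at least 1 base with the conservative one. Stricter calls come from each replicate's thresholded set. Gene models were GENCODE M21 and sequence GRCm38.p6. Assignment and merging were tested on simulated peaks. Motif strings were searched on both strands within 100 bases of the summit, over the whole 201-base window even where a shorter one is printed.

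The members, gene lists, strings and the naming rule were chosen with earlier results of these data known. The rule names each gene's promoter region, its 3 regions with the highest mean fold outside promoters, regions absent from a replicate or over 1 log2 unit apart, and those nearest to the 100 kb limit. From each list, up to 3 genes with most or no regions are named. A listed target gene is not reported here. Alternatives were other peak sets, each replicate alone, other distances, windows, overlaps and summits, and noncoding starts. Python 3.11.15, numpy 2.4.6, pandas 2.3.3, matplotlib 3.10.9 and pysam 0.24.0 were used.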

Additional observations from a re-analysis of the deposited data

How the results depend on the processing

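The number of KLF regions (53) depended on the peak set: 92 in the series' replicated set and 89 in its pseudoreplicated set, with median folds of 4.183 and 4.191 in place of 5.288. In each replicate's own thresholded set alone it was 32 to 33, with median folds of 5.522 to 5.551 and 31 to 32 regions in both replicates' lists. Letting noncoding starts compete left 32 regions, 29 of them in both replicates, with a median fold of 4.453. A limit of 50 kb gave a median fold of 4.751. Asking for both replicates' own thresholded sets left 23 shared regions. Within 50 bases of the summit, 15 regions held a KLF/SP box, against 23 within 100. Of 52 alternatives over these summary values, 37 stayed within 1.5 times the count, or within 1 SD of the replicates for a median fold, and 15 did not. Of 99 alternatives for single genes and motifs, 68 stayed within it and 31 did not. All 6 KLF promoters stayed open in each alternative except with replicate 1 alone, where 5 did. Region counts per gene ranged over the alternatives from 5 to 12 for Klf2, 7 to 20 for Klf3, 3 to 14 for Klf4, 1 to 16 for Klf6, 1 to 7 for Klf7 and 7 to 26 for Klf13. The causes were not tested. No paired analysis was possible because the series has 1 group. The depth behind these counts is unknown, and 2 replicates of unknown relation give an SD that may be technical.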

Other observations

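Beyond the 100 kb limit, 17 regions had a Klf4 TSS as their nearest protein-coding start, against 6 for Klf6, 5 for Klf3 and 1 for Klf7. The length of DNA beyond the limit differs between these genes and was not measured, so these counts are not comparable as densities. The Klf4 regions reached 582 kb upstream. The strongest, chr4:55823699-55824410, lay 292 kb upstream and had folds of 12.1 in replicate 1 and 10.4 in replicate 2, a mean of 11.2 ± 1.13 (SD, n = 2), the same mean to 3 digits as the region 91.1 kb upstream. Another, chr4:56113794-56114276, 582 kb upstream, had 8.86 and 7.16. At Klf6, chr13:5511799-5512115, 350 kb upstream, had 7.48 and 7.92, and chr13:5614142-5615264, 246 kb upstream, had 6.05 and 8.76. Whether any of these regions acts on the KLF genes was not measured.

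The promoter of Klf5, a factor of epithelial cells that is no member of the set above, had a fold of 10.5 in the conservative set, above all 6 KLF promoters described, while the gene had 1 region in all. It was chosen after its values were seen.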
